A study of Homo sapiens with 18 samples.

Results

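NRF2 (gene NFE2L2) is a transcription factor that holds the cell's main program against oxidants and electrophiles. In unstressed cells KEAP1, an adaptor of a cullin ubiquitin ligase, binds NRF2 and marks it for degradation, and oxidants or electrophiles that modify KEAP1 let NRF2 accumulate. NRF2 then pairs with small Maf proteins on antioxidant response elements near genes of heme breakdown, quinone reduction, glutathione synthesis and the thioredoxin system. NRF2 is regulated largely through its protein, and PERK, a sensor of stress in the endoplasmic reticulum (ER), is among the kinases reported to act on it. Only mRNA was measured here.

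The genes described are NFE2L2 and KEAP1 together with the NRF2 targets HMOX1, NQO1, GCLC, GCLM, SRXN1, TXNRD1 and OSGIN1. They were found in the table by symbol. All 9 were among the 57736 Ensembl genes of the count table, and all 9 passed the filter on low counts, as did 17317 genes in all. The RNA came from A1847 cells, an established human line of high-grade serous ovarian cancer, in 18 libraries that form 6 groups of 3. Control cells (labelled wild type), CARM1 knockout cells and XBP1 knockdown cells each received vehicle or tunicamycin, an inhibitor of protein N-glycosylation that causes ER stress, at 5 μg/ml for 8 h. CARM1 is an arginine methyltransferase that acts as a transcriptional coactivator, and XBP1 encodes a transcription factor of the unfolded protein response. The knockout was made with a lentiviral CRISPR vector carrying a single guide and puromycin selection, and whether the cells were a clone or a pool was not stated. The knockdown used a lentiviral short hairpin RNA. A scramble control hairpin is named in the methods, but whether the sequenced control cells carried it was not stated. The labels do not say whether the libraries of a group came from separate cultures, so the p-values measure the spread between these libraries, which may be technical.

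Total counts per library lay between 9367462 and 13917212. The targeted mRNAs were lowered but still detectable. CARM1 lay between 625 and 946 counts in the knockout libraries with vehicle against 2136 to 2389 in control, a log2 fold change of -1.17 ± 0.05 (standard error). In the knockdown the log2 fold change of XBP1 from control was -0.86 ± 0.09 with vehicle and -1.06 ± 0.05 with tunicamycin. XBP1 still rose 2.80-fold with tunicamycin in the knockdown cells. Tunicamycin raised HSPA5, the ER chaperone BiP, by 3.08 ± 0.04 on the log2 scale in control, 2.98 ± 0.03 in the knockdown and 3.77 ± 0.03 in the knockout. The CARM1 knockout libraries stood apart from the others across all tested genes. Their correlations of log2 CPM (counts scaled for library size) with control and knockdown libraries were 0.730 to 0.775, against 0.961 to 0.987 between control and knockdown libraries. Markers of cell identity moved with the knockout. The summed level of the 6 markers of ovarian serous epithelium was 1881 to 2339 CPM in knockout libraries, 309.6 to 484.8 in control libraries and 130.4 to 213.4 in knockdown libraries. Most of the sum came from the keratins KRT8 and KRT18. With vehicle they averaged 734.5 and 1482 CPM in the knockout and 58.4 and 260.0 CPM in control. PAX8 averaged 61.2 CPM in the knockout and 0.050 CPM in control with vehicle. WT1 was at 0 in control with vehicle and in all knockdown libraries. In the knockout with vehicle it averaged only 0.90 CPM, at 8 to 12 counts. MUC16 was at 0 in all 18 libraries. The 3 fibroblast markers summed to 145.5 to 248.8 CPM in control and knockdown libraries and to 186.2 to 500.7 CPM in the knockout, and the collagens among them went opposite ways. With vehicle COL3A1 averaged 222 CPM in control and 0.066 CPM in the knockout, COL1A1 averaged 14.95 and 478.9 CPM, and PDGFRB 4.39 and 5.47 CPM. The 3 leukocyte markers summed to at most 1.62 CPM in control and knockdown and to 5.0 to 7.15 CPM in the knockout. With vehicle CD68 averaged 0.43 CPM in control and 6.36 CPM in the knockout, while PTPRC, which marks all leukocytes, averaged 0.557 and 0.076 CPM, and CD3E was at 0 throughout. The 2 endothelial markers in the table summed to at most 0.318 CPM in any library. The part of these differences in the results below was not tested, and loss of CARM1 cannot be told apart from whatever else differs between the knockout and control cells. In bulk RNA, fewer cells with a transcript and less of it per cell cannot be told apart.

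The antioxidant response element was looked for at the starts of the genes because it is the sequence through which NRF2 acts. The 1000 bases before the start of the canonical transcript in GRCh37 (hg19) were searched on both strands. The core TGACNNNGC occurred in 5 of the 9 windows and in 32.6% of 19110 windows of all protein-coding genes. The matches are shown with flanking bases, on the strand that carries the core, 5′ to 3′, with the core in capitals.

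NQO1, chr16:69760900-69760928: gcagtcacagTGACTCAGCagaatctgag
GCLM, chr1:94375002-94375030: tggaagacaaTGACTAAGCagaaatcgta
TXNRD1, chr12:104609448-104609476: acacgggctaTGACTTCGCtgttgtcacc
GCLC, chr6:53410751-53410779: aaatatgtgtTGACAGAGCaatgacctgt
OSGIN1, chr16:83986278-83986306: agacaatctgTGACTTGGCcccagttttc

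The core of NQO1 was read from the minus strand and the others from the plus strand. Their distances upstream of the start were 34 bases for GCLM, 99 for TXNRD1, 455 for NQO1, 557 for OSGIN1 and 870 for GCLC. The windows of NFE2L2, KEAP1, HMOX1 and SRXN1 held no match, which says only that these letters are not in this window. For ER stress, the C/EBP-ATF response element core TGATGNAA (11.4% of all windows) and the ER stress response element (CCAAT and CCACG 9 bases apart, 0.152%) were searched in the same windows, and neither occurred in any of the 9.

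Tunicamycin changed most of these genes in control cells. Of the 9, 7 rose (NFE2L2, HMOX1, NQO1, GCLC, GCLM, TXNRD1 and OSGIN1), SRXN1 fell, and KEAP1 did not pass the test. All tests are edgeR quasi-likelihood tests with Benjamini-Hochberg adjusted p-values over the whole table of tested genes, called at a false discovery rate (FDR) of 5%. In that comparison 41.9% of all genes tested were called, 22% higher and 19.9% lower. In XBP1 knockdown cells the counts were again 7 higher and 1 lower (38.3% of all genes called, 19.2% higher and 19% lower). In CARM1 knockout cells 3 rose (NFE2L2, GCLC and TXNRD1) and 2 fell (KEAP1 and HMOX1), with 39.5% of all genes called (20.6% higher and 18.8% lower). Vehicle and treated libraries did not overlap for 8 of the 9 genes in control cells, 6 in the knockout and 9 in the knockdown. The same held for 49.8%, 48.4% and 47.4% of all genes.

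**Figure D1:**
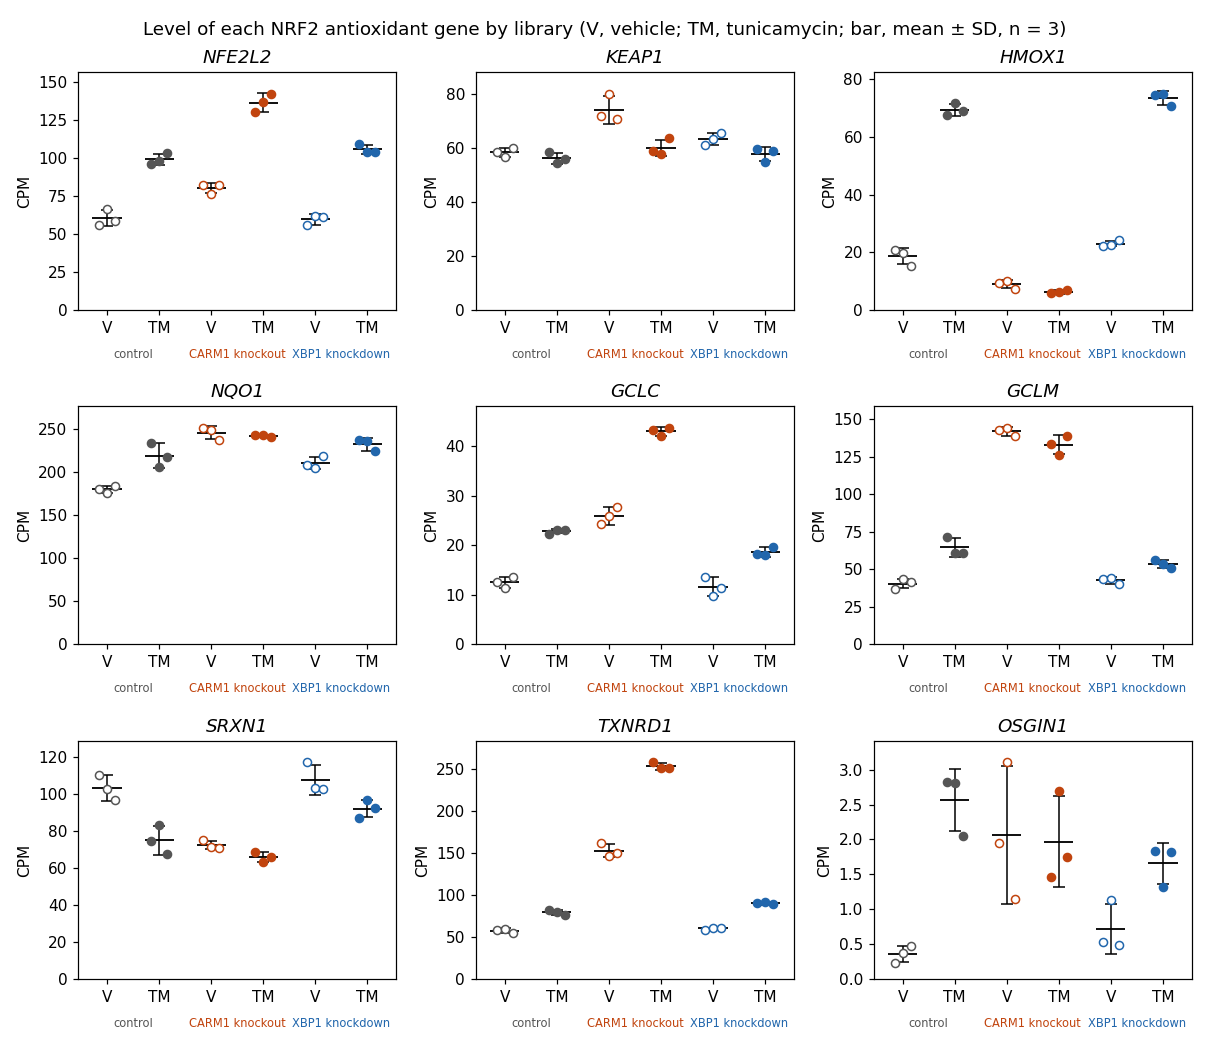
Level of each of the 9 genes in CPM (linear axis from 0) in every library, with open points for vehicle (V) and filled points for tunicamycin (TM), and horizontal bars for the mean ± SD of the 3 libraries. HMOX1 rises with tunicamycin in control and XBP1 knockdown cells, to 67.5 CPM or more in each library, and stays at or below 9.98 CPM in all 6 CARM1 knockout libraries, while GCLM and TXNRD1 are highest in the knockout.

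HMOX1 (ENSG00000100292, chr22:35776354-35790207, plus strand) encodes heme oxygenase 1, the inducible enzyme that breaks down heme, and showed the greatest difference in response between genotypes relative to its error. In control cells it was at 20.7, 19.7 and 15.4 CPM with vehicle and at 67.5, 71.6 and 68.9 CPM with tunicamycin. The 2 groups were well apart, with a 3.77-fold rise (log2 fold change 1.91 ± 0.10, adjusted p = 1.2e-10 in edgeR). In XBP1 knockdown cells it was at 22.2, 22.6 and 24.1 CPM with vehicle and at 74.6, 75.0 and 70.5 CPM with tunicamycin, a 3.17-fold rise. CARM1 knockout cells started lower, at 9.48, 9.98 and 7.44 CPM, and with tunicamycin held 5.83, 6.11 and 6.99 CPM. No library of the treated knockout reached the lowest vehicle library. The log2 fold change there was -0.48 ± 0.15 (adjusted p = 0.013 in edgeR), and this call was lost in DESeq2 (adjusted p = 0.051), without knockout vehicle library 1 (0.051) or 2 (0.065) and without treated knockout library 1 (0.051). The difference between the responses of knockout and control cells was tested directly and was -2.42 ± 0.18 on the log2 scale (adjusted p = 4.5e-09 in edgeR). Compared with control, HMOX1 was 2.11-fold lower in the knockout with vehicle and 10.9-fold lower with tunicamycin. For the knockdown the difference between responses was -0.24 ± 0.12 (adjusted p = 0.39), which did not pass the test.

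NFE2L2 (ENSG00000116044, chr2:178083395-178257484, minus strand), the NRF2 gene itself, rose with tunicamycin in all 3 genotypes by close to the same factor. In control cells it was at 56.2, 66.4 and 58.6 CPM with vehicle and at 96.2, 98.4 and 103 CPM with tunicamycin. The knockout held 82.3, 76.3 and 82.3 CPM with vehicle and 130.2, 136.6 and 142.5 CPM with tunicamycin. The knockdown held 55.7, 62.2 and 61.5 CPM with vehicle and 109.4, 104.2 and 103.9 CPM with tunicamycin. Within each genotype the treated libraries all lay above the vehicle libraries. The folds were 1.66, 1.74 and 1.76 in control, knockout and knockdown, and the response of the knockout differed from that of control by only 0.05 ± 0.09 on the log2 scale (adjusted p = 0.73 in edgeR). The level, however, was higher in the knockout by 0.37 ± 0.07 with vehicle and by 0.47 ± 0.05 with tunicamycin. The annotated region of NFE2L2 overlaps HNRNPA3 on the opposite strand, which had 2775 to 10554 counts, and the strand setting of the counting was not stated.

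KEAP1 (ENSG00000079999, chr19:10596801-10614234, minus strand), the repressor of NRF2, spanned 54.3 to 80.0 CPM over the 18 libraries. The 3 knockout libraries with vehicle, at 71.5, 80.0 and 70.6 CPM, lay above all others, and no other pair of neighbouring groups in the order of means was free of overlap. With vehicle KEAP1 was higher in the knockout than in control by 0.30 ± 0.06 on the log2 scale (adjusted p = 0.00061 in edgeR). With tunicamycin it fell in the knockout, by 0.27 ± 0.06 on the log2 scale (adjusted p = 0.00080 in edgeR), and did not pass the test in control or knockdown cells. The difference between the knockout and control responses was -0.25 ± 0.09 (adjusted p = 0.051), and it passed the test without knockout vehicle library 3 (adjusted p = 0.046), without treated knockout library 3 (0.036) and when all libraries were fitted together (0.038). KEAP1 lies 368 kb from CARM1 on chromosome 19.

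Glutathione is made in 2 steps, and glutamate-cysteine ligase, which carries out the limiting one, consists of the catalytic subunit GCLC and the modifier subunit GCLM. Both rose with tunicamycin in control cells, and both were higher in the CARM1 knockout, but only GCLC rose there with tunicamycin.

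GCLC (ENSG00000001084, chr6:53362139-53481768, minus strand) was at 12.5, 11.5 and 13.6 CPM in control cells with vehicle and at 22.4, 23.2 and 23.0 CPM with tunicamycin. In the knockout it was at 24.2, 25.9 and 27.7 CPM with vehicle and at 43.2, 42.1 and 43.7 CPM with tunicamycin. The untreated knockout thus lay above the treated control. In the knockdown it was at 13.7, 9.86 and 11.4 CPM with vehicle and at 18.3, 18 and 19.8 CPM with tunicamycin. The log2 responses were 0.88 ± 0.10, 0.77 ± 0.08 and 0.68 ± 0.12 in control, knockout and knockdown, and the differences of the knockout and knockdown responses from that of control did not pass the test (-0.12 ± 0.12 and -0.19 ± 0.16, adjusted p = 0.51 and 0.68 in edgeR). The knockout was 2.00-fold above control with vehicle and 1.89-fold with tunicamycin.

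GCLM (ENSG00000023909, chr1:94350755-94375012, minus strand) was at 36.98, 43.3 and 41.5 CPM in control cells with vehicle and at 71.7, 61.0 and 61.1 CPM with tunicamycin. Knockout cells had 142.4, 144.0 and 138.7 CPM with vehicle and 133.4, 126.2 and 138.9 CPM with tunicamycin. The knockout groups overlapped each other and lay above every control and knockdown library. Knockdown cells had 43.4, 44.3 and 40.0 CPM with vehicle and 56.5, 53.5 and 50.8 CPM with tunicamycin. The log2 response was 0.68 ± 0.08 in control cells, 0.33 ± 0.07 in the knockdown and -0.06 ± 0.04 in the knockout, where it did not pass the test (adjusted p = 0.32 in edgeR). The response of the knockout differed from that of control by -0.76 ± 0.09 (adjusted p = 5.2e-06 in edgeR), whereas the difference of -0.35 ± 0.11 for the knockdown did not pass the test (adjusted p = 0.13). GCLM was 3.38-fold above control in the knockout with vehicle and 2.07-fold with tunicamycin. Genes near GCLM were higher in the knockout as well. Of the 17 tested genes within 1 Mb, 13 were higher and 2 lower with vehicle, with a median log2 fold change of 1.01, against 37.5% of all genes called higher. The medians around the other 8 genes lay between -0.25 and 0.18 in the same comparison.

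**Figure D2:**
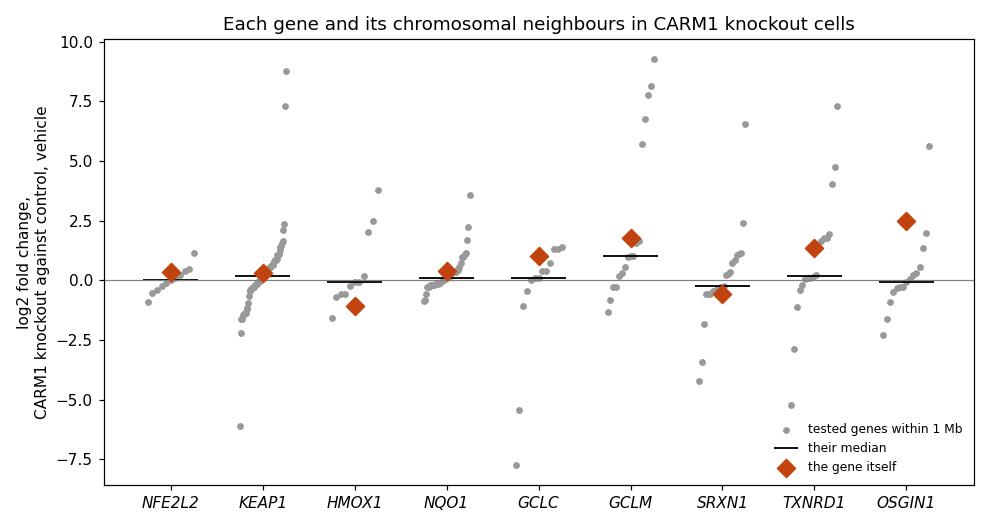
Log2 fold change between CARM1 knockout and control cells with vehicle for each of the 9 genes (diamonds) and for the tested genes within 1 Mb of it (grey points, with their median as a line). Around GCLM the median is 1.01, and around the other 8 genes it lies between -0.25 and 0.18.

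TXNRD1 (ENSG00000198431, chr12:104609557-104744085, plus strand) encodes the cytosolic thioredoxin reductase, which keeps thioredoxin reduced with NADPH. In control cells it was at 57.8, 60.0 and 54.5 CPM with vehicle and at 82.2, 79.5 and 76.7 CPM with tunicamycin. Knockout libraries had 161.6, 146.8 and 150.2 CPM with vehicle and 258.0, 251.5 and 251.0 CPM with tunicamycin. In the knockdown it was at 58.9, 60.8 and 60.8 CPM with vehicle and at 90.0, 91.8 and 88.9 CPM with tunicamycin. Treated libraries lay above vehicle libraries in every genotype, and the knockout lay above the rest under both treatments. The log2 responses were 0.48 ± 0.07 in control, 0.76 ± 0.04 in the knockout and 0.58 ± 0.05 in the knockdown. The knockout response was the greater by 0.26 ± 0.07 (adjusted p = 0.013 in edgeR). TXNRD1 was 2.58-fold above control in the knockout with vehicle and 3.21-fold with tunicamycin. Of the 18 tested genes within 1 Mb of it, 10 were higher and 4 lower in the knockout under both treatments. Their median log2 fold changes were 0.17 with vehicle and 0.53 with tunicamycin. Over all genes, 37.5% and 38.4% were called higher.

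SRXN1 (ENSG00000271303, chr20:627259-633844, minus strand) encodes sulfiredoxin, which restores overoxidized peroxiredoxins, and moved the other way. In control cells it fell with tunicamycin from 96.6 to 110.4 CPM across the vehicle libraries to 67.4 to 83.1 CPM, a log2 fold change of -0.45 ± 0.08 (adjusted p = 0.00017 in edgeR). Knockdown libraries fell from 102.6 to 116.9 CPM to 87.2 to 96.6 CPM, a change of -0.23 ± 0.06. In the knockout it was at 70.9 to 75.0 CPM with vehicle and 63.1 to 68.5 CPM with tunicamycin, a change of -0.10 ± 0.05 that did not pass the test (adjusted p = 0.15). With vehicle the knockout was lower than control by a log2 fold change of -0.56 ± 0.06. With tunicamycin the libraries of these genotypes overlapped, at a log2 fold change of -0.18 ± 0.07 (adjusted p = 0.036), and the call was lost in DESeq2 (0.098), with DESeq2's size factors (0.064), with at least 10 counts required in every library (0.12), and without control library 1 (0.054) or 2 (0.16) or knockout library 1 (0.050), 2 (0.13) or 3 (0.072). The knockout response differed from that of control by 0.33 ± 0.10 (adjusted p = 0.020), and not without treated knockout library 1 (0.056).

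NQO1 (ENSG00000181019, chr16:69740899-69760571, minus strand) encodes a quinone reductase and is the classical readout of NRF2 activity. In control cells it rose from 176.0 to 184.4 CPM to 206.6 to 234.6 CPM with tunicamycin, a log2 fold change of 0.30 ± 0.06 (adjusted p = 0.00053 in edgeR). In the knockout it was at 237.7 to 251.7 CPM with vehicle and 241.5 to 243.1 CPM with tunicamycin, with treated libraries inside the range of the vehicle libraries. The response there was 0.01 ± 0.04 and differed from that of control by -0.30 ± 0.07 (adjusted p = 0.0021). With vehicle the knockout was 1.33-fold above control. With tunicamycin it was 1.11-fold above (adjusted p = 0.013), and this call was lost without treated control library 2 (0.067) or 3 (0.052). In the knockdown it rose from 204.9 to 218.8 CPM to 224.5 to 237.6 CPM, a change of 0.14 ± 0.05 (adjusted p = 0.032) that was lost without knockdown vehicle library 1 (0.064) or 2 (0.14) and without treated knockdown library 1 (0.070) or 2 (0.081).

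OSGIN1 (ENSG00000140961, chr16:83964916-83999937, plus strand), an NRF2-inducible inhibitor of growth, was near the limit of detection. In control cells it had 3, 5 and 7 counts with vehicle and 34, 34 and 27 counts with tunicamycin. Knockout libraries had 25, 37 and 10 counts with vehicle and 17, 34 and 22 with tunicamycin. Knockdown libraries had 7, 16 and 7 counts with vehicle and 26, 15 and 22 with tunicamycin. Scaled for library size, the vehicle libraries of control cells (0.23, 0.37 and 0.47 CPM) lay below all others, of which the lowest was a vehicle library of the knockdown at 0.49 CPM. The log2 response was 2.80 ± 0.40 in control cells (adjusted p = 2.7e-05 in edgeR), -0.06 ± 0.34 in the knockout (adjusted p = 0.92) and 1.19 ± 0.42 in the knockdown (adjusted p = 0.036). The knockdown call was lost in DESeq2 (0.070) and without knockdown vehicle library 1 (0.11) or 3 (0.12) or treated knockdown library 1 (0.10) or 3 (0.097). The response of the knockout differed from that of control by -2.88 ± 0.56 (adjusted p = 0.00066). With vehicle the knockout was 5.53-fold above control (log2 fold change 2.47 ± 0.47, adjusted p = 0.00023). The annotated region overlaps MLYCD on the same strand, which had 36 to 372 counts, and reads shared between them were not examined.

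**Figure D3:**
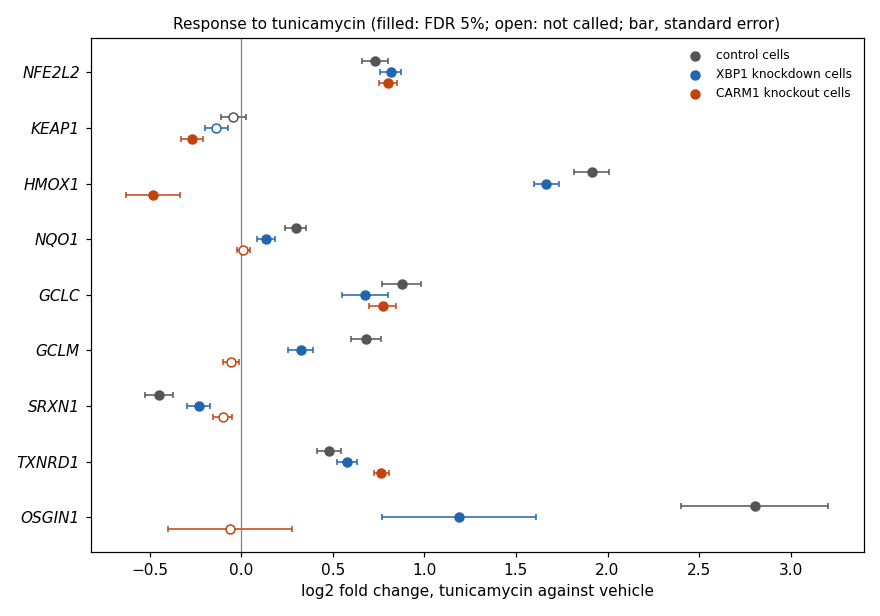
Log2 fold change between tunicamycin and vehicle (horizontal axis, bars for the standard error) for each of the 9 genes in control, XBP1 knockdown and CARM1 knockout cells, filled where called at an FDR of 5% and open where not. The 3 genotypes lie close together for NFE2L2 and GCLC and furthest apart for HMOX1 and OSGIN1.

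Across the genes, the responses of knockout and control cells differed for 6 of the 9. The response of the knockout was lower for HMOX1, NQO1, GCLM and OSGIN1 and higher for TXNRD1 and SRXN1, where the SRXN1 difference is a smaller fall. In that test 22.9% of all genes were called, 10.5% higher and 12.4% lower. For the knockdown, 0 of the 9 differences in response were called (2.04% of all genes, 0.364% higher and 1.67% lower). At an unadjusted p under 0.05, 1 was higher (SRXN1) and 3 were lower (NQO1, GCLM and OSGIN1), and DESeq2 called 0. No share of all genes was counted at the unadjusted threshold, so the 1 higher and 3 lower cannot be compared with the 2.04% of adjusted calls.

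All 9 genes differed between CARM1 knockout and control cells with vehicle, 7 higher and 2 lower (HMOX1 and SRXN1). So did 74.4% of all genes tested, 37.5% higher and 36.9% lower, so that the number of calls is not particular to these genes. All 9 were also free of overlap between the libraries, as were 75.9% of all genes. With tunicamycin 5 were higher and 2 lower, KEAP1 and OSGIN1 did not pass the test, and 75.2% of all genes were called, 38.4% higher and 36.8% lower. There 6 of the 9 were free of overlap, against 77.1% of all genes. KEAP1 was called higher there only with at least 10 counts required in every library (adjusted p = 0.032). The XBP1 knockdown comparisons use the same control libraries. With vehicle only NQO1 was called, higher by 0.22 ± 0.05 on the log2 scale (adjusted p = 0.021 in edgeR), where 5.1% of all genes were called, 2.07% higher and 3.03% lower, and 4 of the 9 were free of overlap, against 23.6% of all genes. This call was lost without control library 1 (0.087) or 2 (0.12) or knockdown library 2 (0.063) or 3 (0.086).

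**Figure D4:**
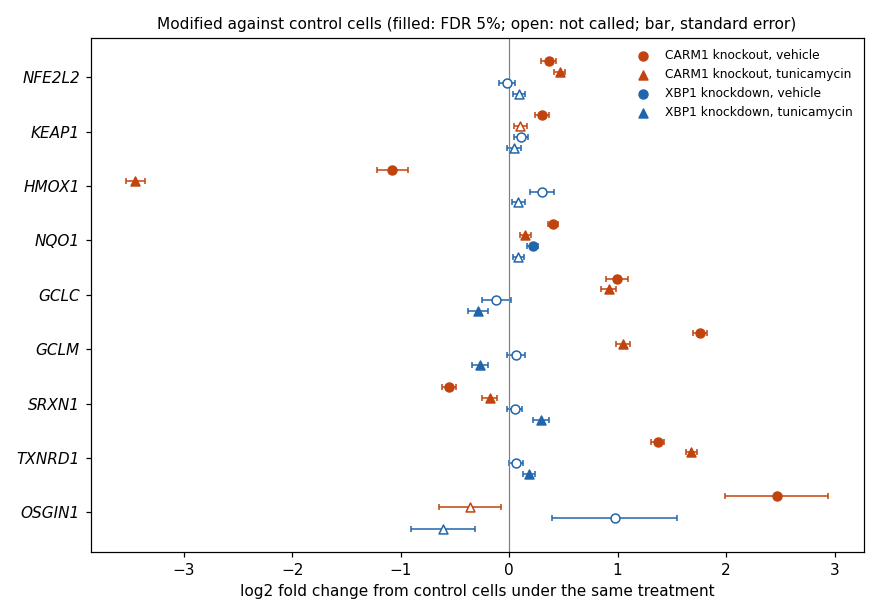
Log2 fold change from control cells under the same treatment (horizontal axis, bars for the standard error) for each of the 9 genes, with circles for vehicle and triangles for tunicamycin, filled where called at an FDR of 5%. HMOX1 lies lowest in the CARM1 knockout, at -1.08 with vehicle and -3.45 with tunicamycin, while the knockdown points other than OSGIN1 lie between -0.29 and 0.30.

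With tunicamycin the knockdown had 2 genes higher, SRXN1 by 0.30 ± 0.07 and TXNRD1 by 0.19 ± 0.06, and 2 lower, GCLC at -0.29 ± 0.09 and GCLM at -0.27 ± 0.08, where 15.5% of all genes were called, 6.99% higher and 8.55% lower. Libraries were free of overlap for 6 of the 9, against 31.5% of all genes. None of these 4 calls held in every fit that left out 1 library. GCLC (adjusted p = 0.048 in edgeR) was lost without any 1 of the 6 libraries (0.068 to 0.14), in DESeq2 (0.11) and without a filter (0.085). TXNRD1 (0.035) was lost in DESeq2 (0.060), without treated control library 2 (0.070) or 3 (0.16), and without knockdown library 1 (0.076), 2 (0.13) or 3 (0.083). GCLM (0.025) was lost without treated control library 1 (0.094) or knockdown library 2 (0.069) or 3 (0.12). SRXN1 (0.011) was lost without treated control library 3 (0.083) or knockdown library 2 (0.055).

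A wider list of 72 genes with roles in or around this pathway held 70 genes of the table and 67 that were tested. The list went by role, and whether its genes respond to NRF2 or to other regulators of stress was not tested. In control cells tunicamycin raised 25 and lowered 10 of the 67, where 22% of all genes tested were called higher and 19.9% lower, and the median log2 fold change was 0.18 against 0 over all genes. The glutathione group held the largest rises. SLC7A11, the cystine importer that feeds glutathione synthesis, rose from 7.37 to 8.74 CPM to 250.7 to 261.4 CPM, a log2 fold change of 5.02 ± 0.08. CHAC1, which degrades glutathione, rose by 4.78 ± 0.09. SESN2, a stress-induced sestrin counted with the thioredoxin group, rose by 3.24 ± 0.05. Of the calls whose libraries did not overlap, RBX1, the RING subunit of the ligase that KEAP1 serves, lay lowest at -0.79 ± 0.06. Next came the constitutive heme oxygenase HMOX2 at -0.76 ± 0.08 and the iron exporter SLC40A1 at -0.70 ± 0.23. Of the 10 genes of heme and iron, 6 rose, among them the ferritin chains FTH1 by 0.63 ± 0.05 and FTL by 0.53 ± 0.05, whose many processed copies in the genome make their counts uncertain. Of the 15 tested genes of detoxification, 2 rose and 2 fell. Of the 10 regulators, 5 rose and 2 fell, and among them the small Maf partners MAFG and MAFF rose by 1.03 ± 0.08 and 0.80 ± 0.14.

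In XBP1 knockdown cells 21 of the 67 rose and 14 fell with tunicamycin, against 19.2% and 19% of all genes. SLC7A11, CHAC1 and SESN2 again led, at 4.99 ± 0.09, 4.94 ± 0.08 and 3.34 ± 0.05, and RBX1, SLC40A1 and HMOX2 again lay lowest among the calls, at -1.04 ± 0.05, -0.98 ± 0.26 and -0.70 ± 0.06. In the knockout 17 rose and 13 fell, against 20.6% and 18.8% of all genes, with a median of -0.02. CHAC1, SLC7A11 and SESN2 led at 3.96 ± 0.11, 3.49 ± 0.04 and 3.37 ± 0.04, and the ligase scaffold CUL3, the carbonyl reductase CBR1 and the peroxiredoxin PRDX1 lay lowest at -0.48 ± 0.06, -0.48 ± 0.05 and -0.46 ± 0.03.

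**Figure D5:**
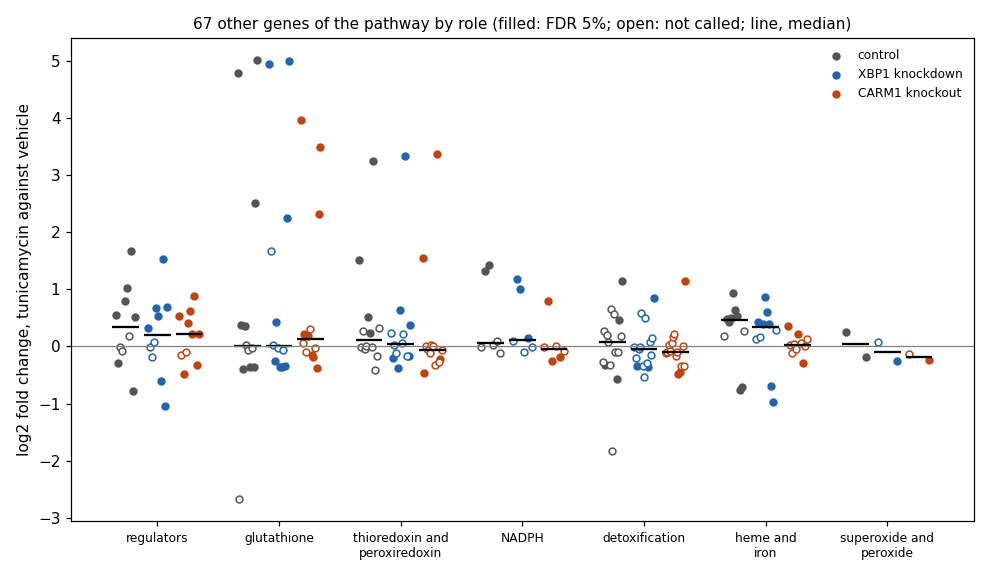
Log2 fold change between tunicamycin and vehicle (vertical axis) for the 67 tested genes of the wider list, grouped by role, in control, XBP1 knockdown and CARM1 knockout cells, filled where called at an FDR of 5%, with the median of each group as a line. The medians of the heme and iron genes are 0.45, 0.33 and 0.03 in control, knockdown and knockout cells.

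The difference between knockout and control responses was called for 29 of the 67, with 25 lower and 4 higher, where 12.4% of all genes were called lower and 10.5% higher. Its median was -0.19 against -0.01 over all genes. The lowest were ME1, an NADPH-producing malic enzyme, at -1.70 ± 0.13 and SLC7A11 at -1.55 ± 0.09. FECH, which inserts iron to form heme, came next at -1.002 ± 0.20. ME1 rose in control cells from 15.5 to 17.1 CPM to 40.3 to 45.5 CPM, and in the knockout went from 21.9 to 25.9 CPM to 17.8 to 22.2 CPM. SLC7A11 was already at 72.3 to 79.9 CPM in the knockout with vehicle and reached 790.2 to 842.1 CPM with tunicamycin, above every control library, so that its smaller fold came with a higher level. The group of heme and iron had 6 lower and 1 higher of 10. FTL and FTH1 were among the lower, at -0.48 ± 0.06 and -0.44 ± 0.05. Highest was GPX1, a glutathione peroxidase, at 2.74 ± 0.84 (adjusted p = 0.023 in edgeR). This fitted value rests on 0 to 14 counts in the control libraries. Among the calls, HMOX2 and RBX1 came next at 0.45 ± 0.10 and 0.44 ± 0.08. For the knockdown 4 of the 67 differences were called, all lower, where 1.67% of all genes were called lower. The count was 2 without control vehicle library 1 or 2, treated control library 3, knockdown vehicle library 1 or 2, or treated knockdown library 2. These were the glutaredoxin GLRX at -1.28 ± 0.23, MAFK at -0.77 ± 0.15, the quinone reductase NQO2 at -0.60 ± 0.15 and MAFG at -0.50 ± 0.12.

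Compared with control under vehicle, the knockout had 34 of the 67 higher and 26 lower, where 37.5% of all genes were called higher and 36.9% lower. Some were nearly present or absent by genotype. GPX1 had 1 to 14 counts in control libraries and 2592 to 3855 in the knockout. GSTA4, a glutathione transferase, had 464 to 620 counts in control and 1 to 4 in the knockout. SLC40A1 had 51 to 65 counts in control and 0 in all knockout libraries, where a count of 0 allows up to 3. The carbonyl reductase CBR3 fell by 3.52 ± 0.09 on the log2 scale. SLC7A11 was higher by 3.19 ± 0.09 and both ferritin chains by 2.19, with errors of 0.04. AKR1C3, whose close paralogs can share reads, had 0 to 5 counts in control and 10 to 30 in the knockout. With tunicamycin 31 were higher and 27 lower, against 38.4% and 36.8% of all genes. There GPX1 had 0 to 3 counts in control and 3674 to 3926 in the knockout, AKR1C2 had 0 to 1 and 8 to 15, and AKR1C3 had 1 to 6 and 14 to 20. At the other end GSTA4 had 478 to 505 counts in control and 1 to 5 in the knockout, SLC40A1 had 24 to 39 and 0, and CBR3 was at -3.37 ± 0.11 on the log2 scale.

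In the knockdown with vehicle 7 of the 67 were higher and 1 lower than in control, against 2.07% and 3.03% of all genes. The 7 became 4 without control library 2 or knockdown library 1 or 2, 12 without control library 3, and 13 with all libraries in one fit. Of the calls free of overlap, MGST1, a microsomal glutathione transferase, lay highest at 0.83 ± 0.08. CBR3 at 0.66 ± 0.05 and FTL at 0.40 ± 0.05 came next. The gene called lower was the efflux transporter ABCG2 at -2.05 ± 0.19. With tunicamycin 14 were higher and 8 lower, against 6.99% and 8.55% of all genes, and the 8 became 4 without control library 3 and 5 without knockdown library 3. Of the calls free of overlap, the aldo-keto reductase AKR1B10 (1.01 ± 0.33), CBR3 (0.91 ± 0.06) and MGST1 (0.88 ± 0.09) lay highest. ABCG2 (-2.25 ± 0.23), GLRX (-0.71 ± 0.13) and MAFK (-0.42 ± 0.11) lay lowest among them.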

How the data were processed

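The deposited table holds expected counts per Ensembl gene, which the authors made with RSEM after aligning 75 nt single reads of the mRNA 3′ ends to hg19 with bowtie2. The values are whole numbers without normalization, so no rounding was needed. The Ensembl release and the strand setting are not given in the sources used here. Libraries were grouped by their labels, and 0 columns were left unmapped.

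The software was edgeR 4.0.16 (with limma 3.58.1) and, for an alternative, DESeq2 1.42.0, run under R 4.3.3. Genes were kept by filterByExpr (minimum count 10, all libraries), and TMM and edgeR quasi-likelihood F tests on the compared groups alone were used, with Benjamini-Hochberg adjustment over all genes tested and calls at 0.05. The standard error is the size of the log2 fold change over the square root of F. Levels in CPM divide the counts by library size and a TMM factor from all libraries, so their ratios can differ from the fitted folds. Small knockout folds also depend on the scaling. Against control with vehicle, log2 fold changes over all genes shifted by a median of 0.039 with DESeq2's size factors. With at least 10 counts required in every library the shift was 0.055. The steps were tested on simulated data. Chi-square per degree of freedom between replicates was 1.84 to 6.89 over genes with at least 20 counts, so replicates did not agree within counting error. Each library was counted as 1 sample, and this spread does not show whether the libraries came from separate cultures.

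The members and the lists were chosen with earlier results of these data known. The text names the 9 genes, the modified genes and members of groups counted in full. Of the wider list it names the 3 highest and 3 lowest called changes per comparison (all calls where fewer). Outside the tests of a difference in response, only calls whose libraries did not overlap between the groups were ranked. TXNIP and SOD2 were not matched to the table, and ABCC2, ALDH3A1 and GPX2 did not pass the filter. Symbols and positions came from GENCODE v44 lifted to GRCh37. Replicate numbers did not pair the libraries. Alternatives were DESeq2, its size factors, a replicate block, other filters and thresholds, a joint fit of all libraries and leaving out each library.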

Additional observations from a re-analysis of the deposited data

Results flagged for a closer look

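The response to tunicamycin differed between CARM1 knockout and control cells for 6 of the 9 genes in the edgeR test of the difference itself, where 22.9% of all genes tested were called. On the log2 scale the knockout response minus the control response was -2.42 for HMOX1, -2.88 for OSGIN1, -0.76 for GCLM, -0.30 for NQO1, 0.26 for TXNRD1 and 0.33 for SRXN1. For OSGIN1 it rests on 3 to 7 counts in the control libraries with vehicle, and the vehicle level of the knockout was 5.53-fold above control. With vehicle the knockout was also above control for GCLM (3.38-fold), TXNRD1 (2.58-fold) and NQO1 (1.33-fold). It was below control for HMOX1 (2.11-fold) and SRXN1 (1.47-fold). Whether the vehicle level bears on the response was not tested.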

How the results depend on the processing

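Of 81 fold changes of the 9 genes, 61 kept direction and call in all alternatives run for them, leaving out each library included (OSGIN1 has no value with at least 10 counts in every library), and none that was called reversed. Depth limits OSGIN1, with at most 37 counts in any library. Without a filter, 2375 of 4120 called differences between knockout and control responses were higher over all genes, and with at least 10 counts in every library 2281 of 3991, against 1814 of 3965.

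Of the 9 genes, the number lower with tunicamycin in the knockout (2) became 1 in DESeq2 and at an FDR of 1%. The number lower in the treated knockout (2) became 1 in DESeq2, with its size factors, with at least 10 counts, at an FDR of 1% and at 1.5-fold. In the treated knockdown the numbers higher and lower (2 each) became 1 each in DESeq2, and the lower became 1 without a filter. In the knockdown with vehicle 2 in place of 1 were higher with all libraries in one fit (HMOX1 added, adjusted p = 0.046), and 13 in place of 7 of the wider list. Without a filter 1 of the wider list in place of 0 had a higher response in the knockdown.

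At an FDR of 1% none of the 9 was higher in the knockdown with vehicle (0), higher (0) or lower (0) in the treated knockdown, or higher in the knockout difference in response (0). Of the wider list, 4 were then higher in the knockdown with vehicle, 9 higher and 4 lower in the treated knockdown, 2 higher in the knockout difference and 2 lower in the knockdown difference. No share of all genes was counted at this threshold, so these counts show only how the calls depend on it.

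At 1.5-fold, of the 9, tunicamycin lowered 0 in each genotype and raised 4 in the knockdown. In the knockout 4 were higher and 1 lower with vehicle, and 3 higher and 1 lower with tunicamycin. In the knockdown 0 were higher with vehicle and 0 higher and 0 lower with tunicamycin, and 0 were higher in the knockout difference. Of the wider list, tunicamycin raised 13 and lowered 3 in control, raised 9 and lowered 0 in the knockout, and raised 13 and lowered 4 in the knockdown. The knockdown had 2 higher with vehicle and 3 higher and 2 lower with tunicamycin, and the knockout difference 1 higher and 5 lower. The counts at 1.5-fold also required an FDR of 5%. The share of all genes past both was not counted, so they cannot be set against one.

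Leaving out each library in turn, of the 9, gave 1 to 2 higher in the knockout difference, 0 to 2 higher and 0 to 1 lower in the treated knockdown, 0 to 1 higher in the knockdown with vehicle, 1 to 2 lower with tunicamycin in the knockout and 1 to 2 lower in the treated knockout. Of the wider list it gave 4 to 12 higher in the knockdown with vehicle (4 without control library 2 or knockdown library 1 or 2, 12 without control library 3), 2 to 5 lower in the knockdown difference (2 without control vehicle library 1 or 2, treated control library 3, knockdown vehicle library 1 or 2 or treated knockdown library 2), and 4 to 9 lower in the treated knockdown (4 without control library 3, 5 without knockdown library 3).

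Differences that were not called changed sign. The NQO1 response in the knockout was -6.7e-05 with at least 10 counts, -0.024 with all libraries in one fit and -0.011 to 0.023 over fits that left out 1 library, lowest without vehicle library 3. The OSGIN1 response there spanned -0.36 to 0.34 over such fits, with 0.34 without vehicle library 2, 0.11 without treated library 1 and 0.02 without treated library 3. In the knockdown with vehicle, NFE2L2 spanned -0.069 to 0.053 (0.053 without control library 2 and 0.03 without knockdown library 1), and SRXN1 -0.011 (without knockdown library 1) to 0.10. The GCLC difference between knockout and control responses spanned -0.18 to 0.00033, the latter without control vehicle library 2. The causes were not tested.

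Libraries with the same replicate number did not deviate together (21 correlations of deviations from the group means, -0.05 to 0.04, and 5 libraries closest to their own number). With the replicate number as a block, 1 in place of 2 of the 9 was lower in the treated knockout (SRXN1 lost, adjusted p = 0.062) and 1 in place of 2 in the treated knockdown (GCLC lost, 0.054), and the NQO1 (0.081) and OSGIN1 (0.058) responses of the knockdown were not called.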

Other observations

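The genes whose pattern over the 18 libraries was most like that of HMOX1 were ACOT13, CCDC71L and SLTM, with Pearson correlations of log2 CPM of 0.991, 0.990 and 0.984. For NFE2L2 they were SHMT2, EAPP and SLC1A5, at 0.981, 0.9805 and 0.98, and for NQO1 EIF3E, EPS15 and METTL4, at 0.942, 0.933 and 0.924. They were taken from 9516 candidate genes, and the 18 libraries share genotypes and treatments, so the values are a description.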
